A study of Mus musculus with 89 samples.

Results

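Acta1, Ckm, Myh4, Tnnt3, Mylpf and Myh1 encode proteins of the fast skeletal muscle fibre. Their tag counts were followed through every region of a spatial profiling series of mouse squamous cell carcinoma, to find which regions hold muscle RNA. They are 6 of the 19962 targets on the panel and were chosen by name. Most stroma segments lacked a clear signal of them. Counts above 10 for any of them were found in 7 of 89 segments, of which 6 were annotated as stroma and 1 as interface with the tumour, and none of these was on the relapse slide. Relapse segments were shallow, and a count of 10 for 1 gene is a high bar there. The segment with the highest share of muscle counts was G-E12, in naive stroma. At its Acta1 share, 4 of 14 relapse stroma and 4 of 22 relapse interface segments would have passed 10 counts. As a share of all counts, the 6 genes held 0.0396% in relapse stroma and 0.0167% at the relapse interface, against 0.437% in G-E12.

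The series measured tumour regions with the GeoMx digital spatial profiler, in which light releases oligonucleotide tags from RNA probes bound to a chosen part of a section. Each such part is called a segment here and named by the end of its title, a letter (G or H) and a position. The letter is taken here as the collection plate, which the labels do not state. The labels call all 89 segments neutrophil, and the stage and location of each come from the authors' annotation. The study's question is the response of neutrophils to immunotherapy by region. The naive slide is pre-treatment, its scan name reads naive UP HRass, and it held 15 stroma, 13 interface and 14 within-tumour segments. The acute slide is post-treatment, its scan name reads treated, and it held 9 stroma and 2 interface segments. The relapse slide is post-treatment, is itself named treated with the scan name DMBA Relapse, and held 14 stroma and 22 interface segments. All 3 slides carried fresh frozen sections. The agent, genotype, strain and age and the number of animals are not given in the sources used here. With 1 slide for each stage, slide and stage cannot be told apart. Segments share slides and animals, so p-values over segments are too small.

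Skeletal muscle contracts when calcium released inside the fibre frees actin filaments to slide along myosin filaments. Fast fibres differ from one another in the myosin heavy chain they make, and creatine kinase restores the ATP that the motor spends. A thin sheet of skeletal muscle lies beneath the skin of the mouse.

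The starts of 4 of the 6 genes are shown because their counts are followed together below, and because they carry different sets of motifs known from muscle promoters. The sequences are the 250 bases before each gene's start, from RefSeq for GRCm38.p6. Capitals mark matches on either strand to an E-box (CANNTG), a TATA box (TATAAA), a MEF2 site or a CArG box.
Acta1, chr8:123894776-123895025, minus strand: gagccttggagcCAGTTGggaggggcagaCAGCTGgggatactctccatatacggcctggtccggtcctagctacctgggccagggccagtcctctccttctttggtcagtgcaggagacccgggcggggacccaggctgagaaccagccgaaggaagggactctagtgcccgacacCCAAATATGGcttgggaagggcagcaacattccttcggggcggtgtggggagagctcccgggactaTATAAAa
Ckm, chr7:19410844-19411093, plus strand: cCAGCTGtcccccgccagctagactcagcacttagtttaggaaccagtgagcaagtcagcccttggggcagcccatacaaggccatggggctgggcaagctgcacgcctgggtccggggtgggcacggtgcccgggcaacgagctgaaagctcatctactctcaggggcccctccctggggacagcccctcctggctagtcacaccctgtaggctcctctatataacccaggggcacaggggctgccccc
Myh4, chr11:67237562-67237811, plus strand: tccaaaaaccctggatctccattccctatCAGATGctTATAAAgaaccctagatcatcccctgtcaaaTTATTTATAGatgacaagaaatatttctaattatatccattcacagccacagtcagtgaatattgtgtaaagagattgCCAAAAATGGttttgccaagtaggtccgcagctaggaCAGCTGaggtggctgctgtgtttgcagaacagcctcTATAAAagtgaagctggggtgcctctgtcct
Myh1, chr11:67199852-67200101, plus strand: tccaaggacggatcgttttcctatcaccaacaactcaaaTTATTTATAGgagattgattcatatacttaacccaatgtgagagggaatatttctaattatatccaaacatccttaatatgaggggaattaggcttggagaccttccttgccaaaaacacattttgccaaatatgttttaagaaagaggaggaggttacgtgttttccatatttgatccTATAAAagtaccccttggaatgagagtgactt
Acta1 held 2 E-boxes, 1 CArG box and 1 TATA box. Ckm held 1 E-box. Myh4 held 2 E-boxes, 1 MEF2 site, 1 CArG box and 3 TATA matches, and Myh1 held 1 MEF2 site and 2 TATA matches. In Myh4 and in Myh1 1 of the TATA matches lies on the reverse strand inside the MEF2 site. Over the same 250 bases of 32851 RefSeq starts, an E-box was found in 66.2%, a TATA box in 12.4%, a MEF2 site in 2.92% and a CArG box in 1.47%. A match is a description of the letters and not evidence of a site in use.

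In GRCm38.p6 Acta1 lies at chr8:123891758-123894775, Ckm at chr7:19411094-19421583, Tnnt3 at chr7:142498771-142516213 and Mylpf at chr7:127208848-127214288. Myh1 (chr11:67200102-67224577) and Myh4 (chr11:67237812-67260447) are neighbours on chromosome 11, with starts 37710 bases apart. The fast myosin heavy chains are close copies of one another. Probe sequences were not used here, so their counts are uncertain where a probe could bind more than 1 of them.

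The deposited value of a target is its tag count divided by a factor for the segment, and the count was recovered by multiplying the 2. The smallest count was 1, which is the floor, and 69.1% of all values were at it. Depth, the sum of counts above the floor, ranged from 573 to 208675 with a median of 7216. Each segment has a limit of quantitation, set from its negative probes and never below 2 counts. As a check of the label, the 15 genes of the Neutrophil list had a median of 1.11 times the panel average per target over the 89 segments. It was 1 to 1.15 in the 7 segments above, where 0 to 3 of the 15 exceeded the limit. Of all targets, 4.27% to 18.1% exceeded it in these segments.

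The highest share of muscle counts was in the naive stroma segment G-E12, where the 6 genes held 0.437% of counts (exact 95% interval 0.392 to 0.485, counting error only). Its counts were 90 for Acta1, 63 for Ckm, 64 for Myh4, 78 for Tnnt3, 46 for Mylpf and 15 for Myh1. All 6 exceeded the limit of 9.52 counts, as 6.33% of all targets did in that segment, and the average over the 6 was 14.5 times the panel average per target. Both Myh4 and Ckm had their highest count of the series there. Here as elsewhere, fewer muscle fibres and less RNA per fibre cannot be told apart.

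The second naive segment was G-D06, also stroma. It had 19 counts of Acta1, 7 of Ckm, 3 of Myh4, 14 of Tnnt3, 10 of Mylpf and 3 of Myh1, with 4 of 6 above its limit of 4.63. In that segment 18.1% of all targets exceeded the limit. The share of the 6 genes was 0.115% (0.0857 to 0.152), below that of G-E12 with no overlap of the intervals. Acta1 and Tnnt3, for the actin and the tropomyosin-binding troponin of the thin filament, exceeded 10 counts there, and Myh4 and Myh1 did not exceed the limit.

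On the acute slide 5 segments passed 10 counts for at least 1 gene. The highest counts of the series for Acta1, Tnnt3, Mylpf and Myh1 came from stroma segment H-A05, with 172 for Acta1, 46 for Ckm, 14 for Myh4, 90 for Tnnt3, 53 for Mylpf and 42 for Myh1. The 6 genes held 0.276% of its counts (0.250 to 0.304), and 5 of them exceeded its limit of 15.2, Myh4 being the exception. Of all targets in H-A05, 5.43% exceeded that limit. Interface segment H-B06 had 86 counts of Acta1, 9 of Ckm, 3 of Myh4, 29 of Tnnt3, 37 of Mylpf and 9 of Myh1, a share of 0.331% (0.283 to 0.386). All but Myh4 exceeded its limit of 7.21, as 5.24% of all targets did in that segment. H-B06 is 1 of only 2 acute interface segments, and in the other, H-A03, the highest of the 6 genes had 7 counts at nearly the same depth (50333 against 50391).

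The other 3 acute segments were stroma and carried fewer of the genes. H-A02 had 61 counts of Acta1, 19 of Tnnt3, 19 of Mylpf, 9 of Ckm, 8 of Myh1 and 4 of Myh4, with 3 of 6 above its limit of 9.29 and a share of 0.155% (0.128 to 0.187). Of all targets in H-A02, 4.3% exceeded the limit. H-A07 was a small segment with 9 nuclei and a depth of 10587. It had 26 counts of Acta1 against 4 of Mylpf, 4 of Myh1, 2 of Ckm and 1 each of Myh4 and Tnnt3, a share of 0.302% (0.207 to 0.426). H-A06, the deepest segment of the series, had 27 counts of Acta1, 18 of Tnnt3, 17 of Mylpf, 16 of Ckm, 12 of Myh4 and 8 of Myh1. An average target there had 11.5 counts, only Acta1 and Tnnt3 exceeded its limit of 17.3, and the share was 0.0441%. Of all targets in H-A06, 9.53% exceeded the limit. The 6 genes had 1.47 times the panel average there, against 3.84 to 14.5 times in the other 6 segments.

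None of the other 82 segments had more than 8 counts of any of the 6 genes, and the median of each gene there was 1, the floor. The 7 segments together held 79.8% of the muscle counts above the floor (1216 of 1523) and 34.1% of all counts. By gene this share was 89.6% for Acta1, 82.3% for Tnnt3, 78.9% for Mylpf, 75.9% for Ckm, 65.1% for Myh1 and 60.3% for Myh4. Just outside the threshold of 10 counts lay acute stroma segment H-B05 with 8 counts of Mylpf and naive segment G-A07 with 8 of Myh4. Naive stroma segment G-E08 and relapse stroma segment H-H06 ranked high by share, at 0.156% (0.0507 to 0.364) and 0.126% (0.0410 to 0.295), on 5 counts each.

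**Figure D1:**
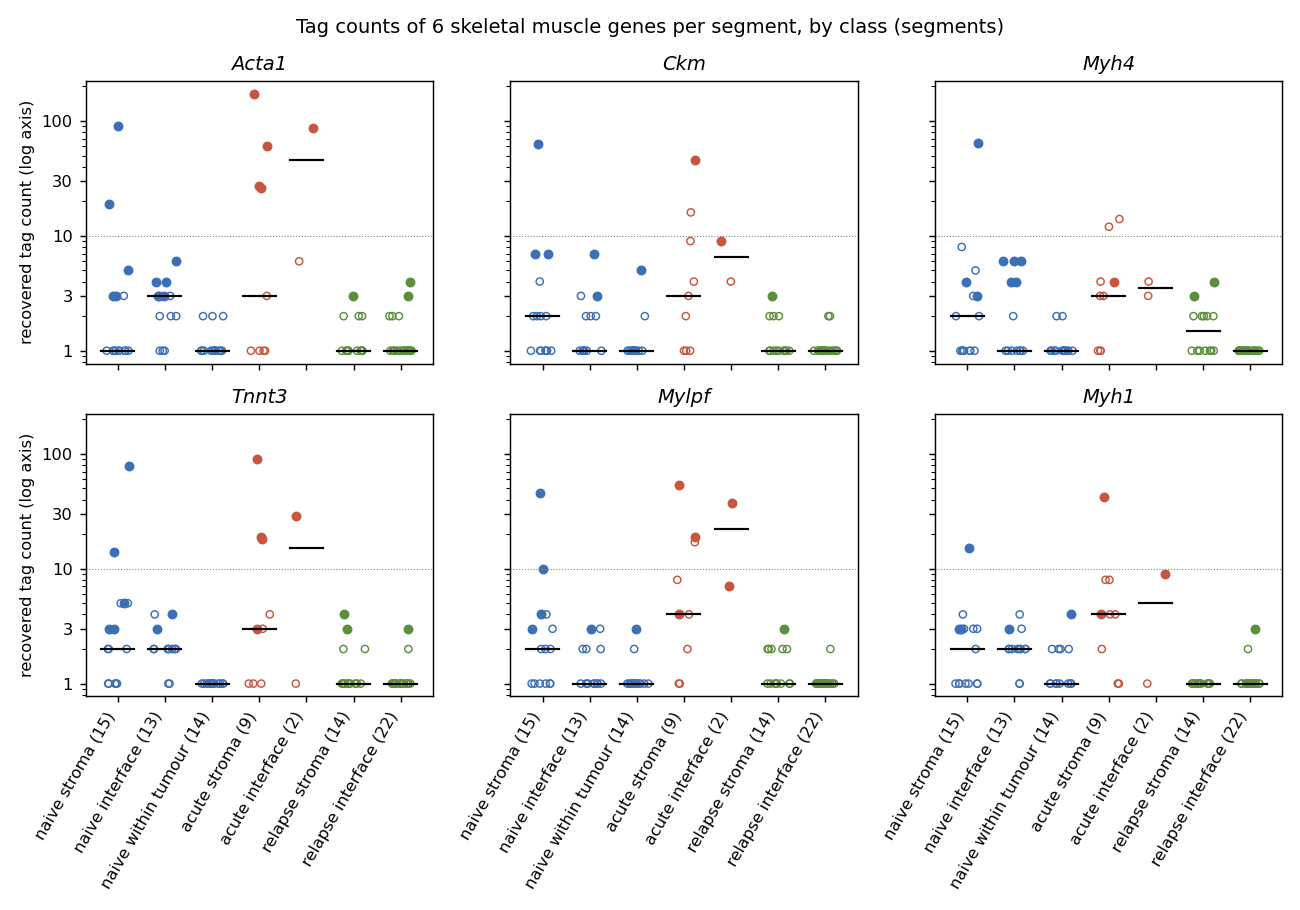
Recovered tag counts of the 6 genes per segment on a log axis, by stage and location, with the number of segments in brackets. Filled points exceed the segment's limit of quantitation, the bar is the median, and the dotted line marks 10 counts; no relapse segment is above 4 counts in any panel.

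By position, the muscle counts were local. Region coordinates are given without a unit, and regions less than 5000 units from a neighbour were joined, which gave 17 position clusters over the 3 slides. The 3 stroma segments nearest to G-E12, at 707, 1175 and 1920 units, each had 1 count of Acta1 and none of the 6 genes above the limit. Their depths were 25079, 7980 and 3249, against 80118 in G-E12. The 6 genes held 0.0239% (0.00878 to 0.0521), 0% (0 to 0.0462) and 0.0308% (0.000779 to 0.171) of their counts. None of these intervals, which cover counting error only, overlaps that of G-E12 (0.392 to 0.485). The fourth, G-C03 at 2871 units, had 5 counts of Acta1, 4 of Myh4 and 3 of Tnnt3, which are above its limit of 2. Of all targets in G-C03, 10.7% exceeded that limit. G-D06 lay 643 units from an interface segment with 4 counts of Acta1 and 775 units from a within-tumour segment with 1.

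The acute segments with muscle counts were not one patch. H-A05 and H-A06 lay 2626 units apart and H-A05 and H-A03 2839 units apart, while H-A02, H-A07 and H-B06 were each alone in their cluster, at least 6761 units from any other segment. The 4 acute segments of 1 further cluster reached 8 counts at most. The letter taken as the plate moved with this pattern. The 4 acute segments on plate G had at most 4 counts of any of the 6 genes at depths of 2110 to 64652, and the 7 on plate H reached 172 at depths of 10587 to 208675. Naive segments came from plate G alone and relapse segments from plate H alone, and the part of plate in the result was not tested at the level of single segments. Depth limits the count of a single gene. At the Acta1 share of G-E12 a segment of median depth would have 5.4 counts in relapse stroma and 4.97 at the relapse interface. It would have 12.9 in naive stroma and 72.8 in acute stroma. Summed over the 6 genes and all segments of a class, the share was 0.0396% (0.0274 to 0.0554) in relapse stroma. It was 0.0167% (0.00975 to 0.0268) at the relapse interface. Both intervals, for counting error only, lie below that of G-E12 (0.392 to 0.485).

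**Figure D2:**
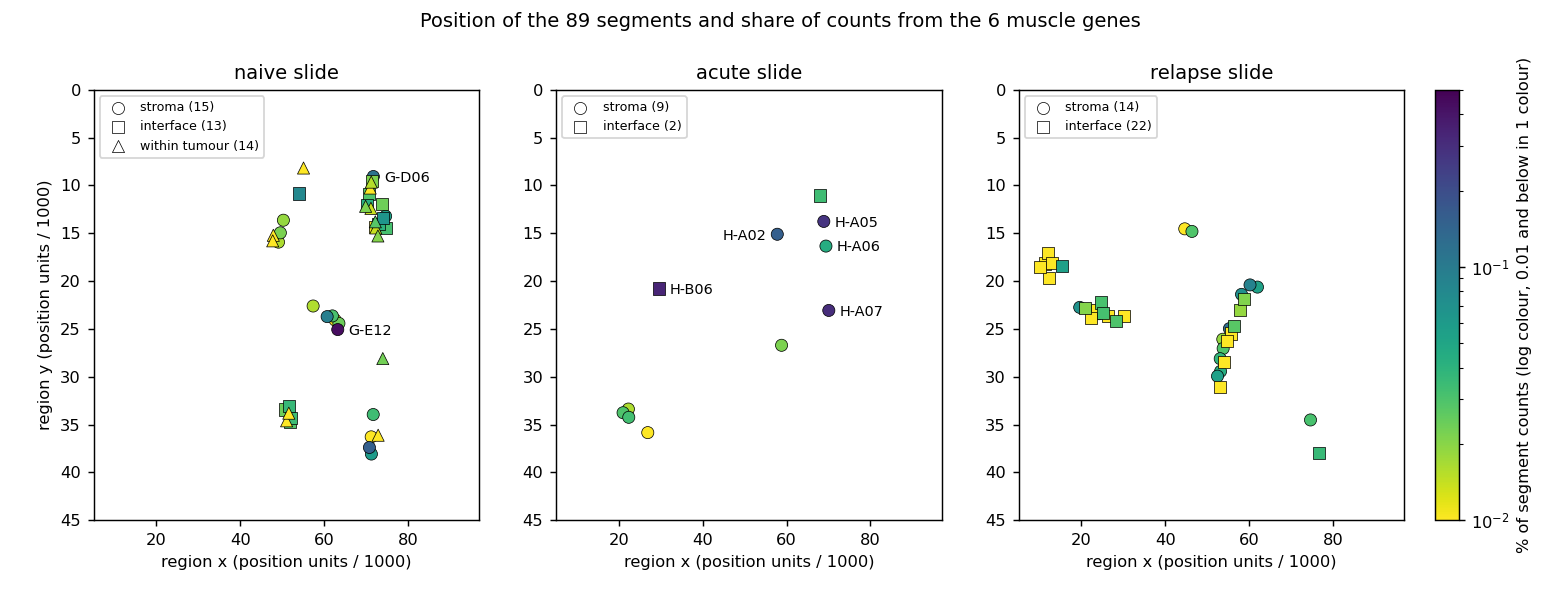
Position of each segment on the 3 slides, in coordinate units, with shape for location and colour for the percentage of the segment's counts held by the 6 genes (log scale). The 7 labelled segments have a gene above 10 counts. G-E12 at 0.437% lies beside shallower stroma segments with 1 count of Acta1.

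Over whole classes, the 6 genes held most counts in acute interface (0.183%, exact 95% interval 0.157 to 0.211, 2 segments). They followed in naive stroma (0.110%, 0.101 to 0.121) and acute stroma (0.107%, 0.0991 to 0.115), whose intervals overlap. Relapse stroma (0.0396%, 0.0274 to 0.0554) and naive interface (0.0305%, 0.0246 to 0.0372) overlapped too, as did relapse interface (0.0167%, 0.00975 to 0.0268) and naive within tumour (0.0166%, 0.0101 to 0.0256). These intervals cover counting error only. The panel average for 6 targets is 0.0301%. The order of class totals was set by single segments, since the median share per segment was 0.0308% in naive stroma, 0.0317% in naive interface, 0.0327% in acute stroma and 0.0414% in relapse stroma. It was 0.0069% within the naive tumour and 0 at the relapse interface.

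Of the values of the 6 genes, 25.6% exceeded the limit of quantitation in naive stroma, against 10.5% of all targets there. The figures were 27.8% against 7.29% in acute stroma, 50% against 6.57% in acute interface, 21.8% against 16.7% in naive interface and 8.33% against 5.51% in relapse stroma. They were lower than for all targets within the naive tumour (3.57% against 8.87%) and at the relapse interface (3.03% against 4.0%). At the relapse interface 13 of 22 segments had all 6 genes at the floor, and within the naive tumour 7 of 14 did.

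Acta1, the actin of the skeletal thin filament, exceeded the limit in 19 of 89 segments. Its lowest, median and highest counts were 1, 1 and 90 in naive stroma, 1, 3 and 6 in naive interface, and 1, 1 and 2 within the naive tumour. In acute stroma they were 1, 3 and 172, in relapse stroma 1, 1 and 3, and at the relapse interface 1, 1 and 4; the 2 acute interface segments had 6 and 86. Every pair of classes with more than 2 segments overlapped, because each held segments at the floor. In deposited units Acta1 was 8.49 ± 13.9 (SD, n = 15) in naive stroma, 18.9 ± 24.5 (SD, n = 9) in acute stroma and 4.67 ± 2.72 (SD, n = 14) in relapse stroma. The median value of 1 count was 1.87, 0.748 and 3.74 in these classes, so the relapse mean lies near the value of the floor.

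Tnnt3, the tropomyosin-binding troponin of fast fibres, exceeded the limit in 15 segments. It was at 1 count in all 14 within-tumour segments, and its lowest, median and highest counts were 1, 2 and 78 in naive stroma, 1, 2 and 4 in naive interface and 1, 3 and 90 in acute stroma. In relapse it reached 4 counts in stroma and 3 at the interface. Mylpf, the regulatory light chain of fast myosin, exceeded the limit in 12 segments, with 1, 2 and 46 counts in naive stroma, 1, 1 and 3 in naive interface and 1, 4 and 53 in acute stroma. Both acute interface segments exceeded the limit for Mylpf, with 7 and 37 counts.

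Ckm, the muscle creatine kinase, exceeded the limit in 9 segments, and its highest counts were 63 in naive stroma, 46 in acute stroma, 9 in acute interface, 7 in naive interface, 5 within the naive tumour and 3 in relapse. Myh4, the heavy chain of type IIB fibres, exceeded it in 11 segments. Only 1 of these, G-E12, is among the 7, and the others had 3 to 6 counts in segments with low limits. Myh1, the heavy chain of type IIX fibres, exceeded it in 9 segments and was at 1 count in all 14 relapse stroma segments.

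The makeup of the muscle counts differed between segments. Shares are compared here for 1 gene across segments, since probes of different genes need not bind equally well. Over the counts of the 3 fast heavy chains Myh4, Myh1 and Myh2 (type IIA), the share of Myh4 was 79.7% in G-E12 (exact 95% interval 69.2 to 88, 79 counts), 19.4% in H-A05 (10.8 to 30.9, 67 counts) and 7.14% in H-B06 (0.877 to 23.5, 28 counts). The share of Myh1 was 17.7%, 61.2% (48.5 to 72.9) and 28.6% in these segments, and that of Myh2 was 2.53%, 19.4% and 64.3% (44.1 to 81.4). In H-A05 neither Myh4 nor Myh2, at 14 counts each, exceeded the limit of 15.2, and in H-B06 Myh4 did not exceed its limit. The intervals of Myh4 in G-E12 do not overlap those in H-A05 or H-B06, and each covers counting error in 1 segment, with no replicate of these sites. In H-A07, H-A02 and G-D06 the 3 genes together had 6 to 17 counts, too few for narrow intervals, and in H-A06 none of the 3 exceeded the limit.

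**Figure D3:**
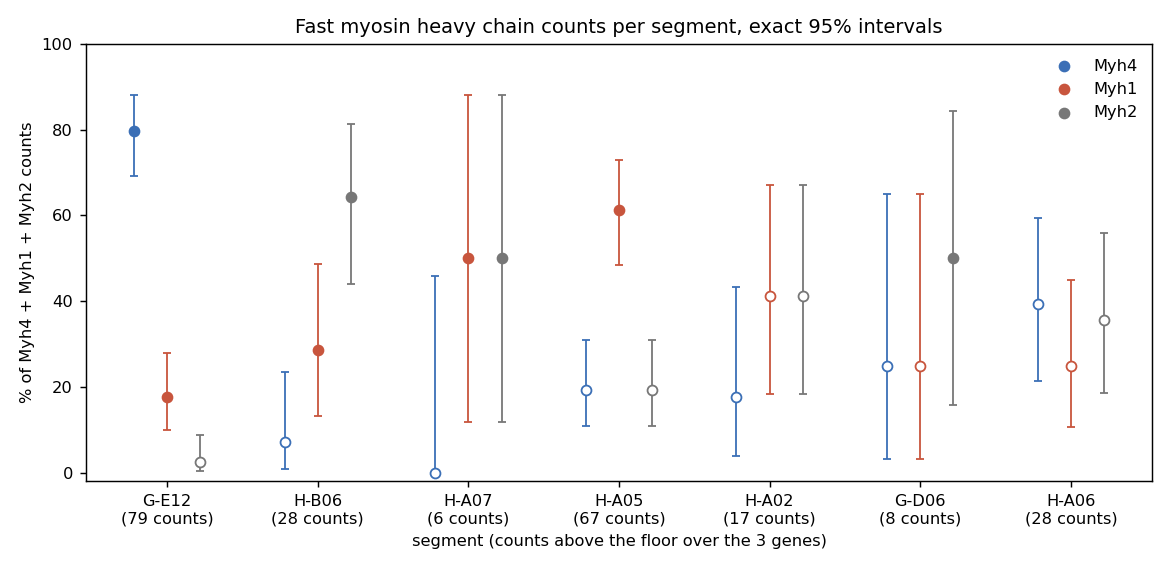
Percentage of Myh4, Myh1 and Myh2 among their summed counts above the floor in the 7 segments, with exact 95% intervals for counting error. Filled points exceed the limit of quantitation; the share of Myh4 is 79.7% in G-E12 against 19.4% in H-A05 and 7.14% in H-B06.

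Relative to Acta1 in the same segment, Ckm had a count ratio of 0.697 in G-E12, 0.263 in H-A05 and 0.0941 in H-B06. As a share of the pair, Ckm was 41.1% (33.1 to 49.3), 20.8% (15.6 to 26.9) and 8.6% (3.79 to 16.2), so G-E12 stood apart from both others. Mylpf relative to Acta1 varied less, at 0.506, 0.304 and 0.424, with pair shares of 33.6% (25.7 to 42.2), 23.3% (17.9 to 29.4) and 29.8% (21.8 to 38.7) that overlap. In H-A07 Tnnt3 was at the floor beside 26 counts of Acta1, a pair share of 0 with an upper bound of 13.7%, against 34.2% (28.5 to 40.3) in H-A05. Each ratio compares segments for the same pair of probes, not the levels of different genes.

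Other muscle genes were read from lists by role. The 13 genes of the fast fibre list, which contains 5 of the 6 genes, had 10.6 times the panel average in G-E12, 7.95 in H-B06, 7.54 in H-A07, 6.19 in H-A05, 3.79 in H-A02, 3.61 in G-D06 and 1.86 in H-A06, with a median of 0.983 over the 89 segments. Among its other genes Tnni2, the inhibitory troponin of fast fibres, had 73 counts in G-E12, 56 in H-A05 and 23 in H-B06, and Tnnc2, the calcium-binding one, had 43, 33 and 13. Tpm1 and Tpm2, for tropomyosins that smooth muscle also makes, had 63 and 66 in G-E12 but their counts in H-A06 were 69 and 42.

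The lists of calcium handling and energy genes had their highest ratios of the series in G-E12. Atp2a1, the calcium pump of fast fibres, had 119 counts in G-E12, 93 in H-A05, 33 in H-B06 and at most 8 in the other 82 segments. The 10 genes of the excitation and calcium list had 4.53 times the panel average in G-E12 (median of all segments 0.654), with 4 of 10 above the limit. The 12 genes of muscle energy metabolism, Ckm among them, had 4.28 times (median 0.571), with 7 of 12 above the limit. Eno3, the muscle enolase, had 51 counts in G-E12 and 41 in H-A05 but 2 in H-B06, and Pygm, the muscle glycogen phosphorylase, had 19, 14 and 12. The 12 genes of the sarcomere scaffold had 2.60 times in G-E12 and 1.85 in H-A05 (median 0.582). Actn2, which crosslinks actin at the Z-disc, had 11 counts in G-E12, 21 in H-A05 and 13 in H-B06.

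Markers of slow fibres, heart and regenerating muscle had 0.435 to 2.12 times the panel average in the 7 segments. The 7 slow fibre genes had 0.961 times the average in G-E12 and 0.956 in H-A05, with none above the limit in either, and 0.856 to 1.13 over all 7 segments. The 5 cardiac genes had 0.448 in G-E12, with none above the limit, and 1.29 in H-A05. In H-A05 2 of the 5 exceeded the limit of 15.2, Tnni3 at 17 counts and Mybpc3 at 16, as 5.43% of all targets did. The 8 genes of muscle stem cells and regenerating fibres, such as Pax7 and Myog, had 0.747 in G-E12 and 1.12 in H-A05, with none above the limit in either. Their highest ratio of the series was 2.12 in H-A07, where only Myog, at 4 counts, exceeded the limit of 3.13. Relapse stroma segment H-E03, outside the 7, was close at 2.06.

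Smooth muscle and adipocyte markers moved with the muscle counts in some segments and not in others. The 6 smooth muscle genes had 5.40 times the panel average in G-E12 (3 of 6 above the limit, Acta2 at 62 counts) but 0.714 in H-A05 (none above the limit, Acta2 at 5 counts). In H-A06 Acta2 had 79 counts, and the list had 2.25 times the average. The 8 adipocyte genes had 4.52 times the average in G-E12 and 33.7 in its neighbour G-E11, the highest of the series. G-E11 had 145 counts of Cfd and 104 of Fabp4, both secreted or made by fat cells, with all 8 genes above the limit and 1 count of Acta1. The Fibroblast list ranged from 1.97 to 11.4 and the Macrophage list from 1.21 to 10.3 over the 7 segments, against medians of 5.97 and 2.13. The Keratinocyte list was below its median of 3.34 in all 7, at 1.01 to 2.86. The part of these cells in the muscle counts was not tested.

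**Figure D4:**
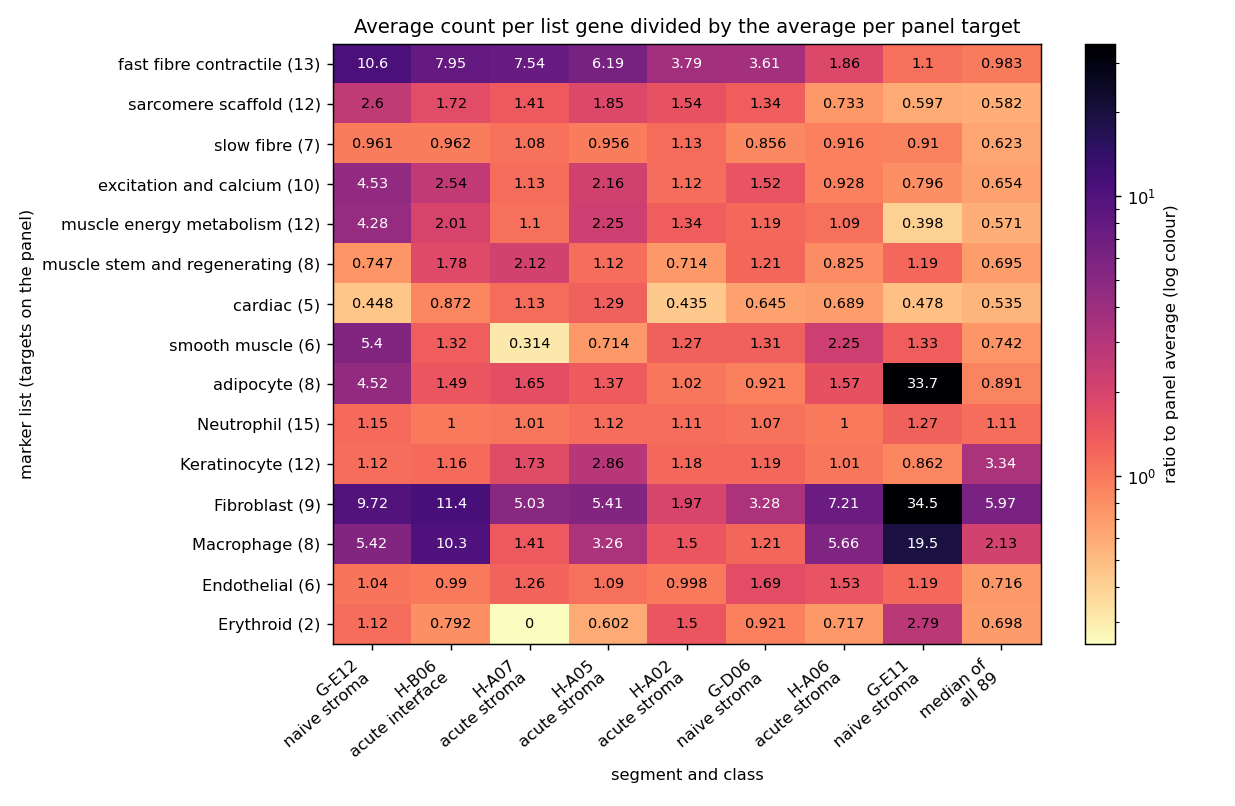
Average count per gene of each marker list divided by the average per panel target, for the 7 segments with a muscle gene above 10 counts, the neighbour G-E11, and the median of all 89 segments (log colour). The fast fibre row falls from 10.6 in G-E12 to 1.86 in H-A06 while the slow fibre row stays between 0.856 and 1.13.

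The 10 targets whose pattern was most like the mean of the 6 genes were Tnni2, Atp2a1, Tpm2, Tnnc2, Actn2, Cox6a2, Tpm1, Pygm, Slc25a4 and Eno3. Their Pearson correlation of log2 values over the 89 segments ran from 0.821 for Tnni2 and 0.796 for Atp2a1 to 0.51 for Eno3, and 9 of the 10 are on the muscle lists. Slc25a4, the ADP/ATP carrier of the inner mitochondrial membrane, is the exception. Of the 5087 tested targets, 10 are on the fast fibre list, 8 on the energy, 3 on the calcium and 2 on the scaffold list. The 6 genes are among these. The lists were chosen with earlier results of these data known, so the 9 are not independent support. Without G-E12 and H-A05 the values were 0.732 for Tnni2, 0.636 for Atp2a1 and 0.173 for Eno3. Without all 7 segments the 10 targets ran from 0.241 for Tpm2 to 0.627 for Actn2, with 0.62 for Tnni2. Actn2 and Cox6a2 (0.589) were then above their values over all 89 segments (0.598 and 0.552), and the others were below theirs. Part of the likeness therefore lies among segments with counts near the floor. These are descriptions over segments that share slides and a scaling in which 1 count has a higher value in shallow segments. Among the 6 genes, Mylpf and Acta1 were most alike (0.698) and Myh4 and Acta1 least (0.216).

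To ask whether the genes differed between classes, limma was run on log2(deposited value + 1) over all 89 segments, for the 5087 targets above the limit of quantitation in at least 10% of segments. All 6 genes passed this filter. Differences are on that log2 scale, which understates the change of low genes. It can also create, hide or reverse a difference between classes of unlike depth. The median value of 1 count was 1.87 in naive stroma, 0.748 in acute stroma and 3.74 in relapse stroma, so genes at the floor in 2 classes can still differ. A target was called at a Benjamini-Hochberg adjusted p under 0.05.

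On the naive slide 1 of the 6 genes, Mylpf, was lower at the interface than in stroma, in a comparison where 11.1% of all tested targets were called. Mylpf was 2.49 ± 1.06 (SD, n = 13) at the interface and 6.29 ± 6.64 (SD, n = 15) in stroma in deposited units. The log2 difference was -0.784 (SE 0.212, limma adjusted p = 0.00588), and it was -0.616 (limma adjusted p = 0.0301) without G-E12. The 2 classes overlapped, with 6 of 15 stroma and 8 of 13 interface segments at the floor. The other 5 genes did not pass, with differences from -0.568 for Tnnt3 to -0.143 for Myh1. All 6 differences were negative with a median of -0.409, against -0.149 for all targets. With counts, floor included, scaled to the same depth per segment, Mylpf was at -0.547 and did not pass (limma adjusted p = 0.756). That scaling raises the value of 1 count in shallow segments. Without interface segment G-A09 Ckm passed too, at -0.65 (limma adjusted p = 0.0261).

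Of the wider fast fibre list, 5 of 10 tested genes were lower at the naive interface (Mylpf, Tnni2, Tnnc2, Tpm1 and Tpm2), none was higher, and the median was -0.584. None of the 2 scaffold, 1 slow fibre, 3 calcium or 8 energy genes tested was called. In the same comparison 2 of 3 smooth muscle genes (Acta2 and Tagln) and 4 of 6 adipocyte genes (Adipoq, Fabp4, Cfd and Car3) were lower at the interface. So were 8 of 8 Fibroblast genes (median -1.72, Col1a1 at -2.38) and 7 of 8 Macrophage genes (median -1.14, Apoe at -3.98). The part of these cells in the muscle difference was not tested.

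Within the naive tumour, Tnnt3 was called lower than in stroma, the only one of the 6 genes to pass, where 3.66% of all targets did. It was at the floor in 14 of 14 within-tumour and 5 of 15 stroma segments. Each within-tumour value is thus 1 count divided by the segment's factor, and Tnnt3 passed the filter through other classes only. The call gives no level of Tnnt3 within the tumour. The difference was -0.774 (SE 0.243, limma adjusted p = 0.0479). The limma adjusted p was 0.0913 with the position cluster as a random block, 0.0581 with depth as a covariate and 0.102 with no filter. It did not pass without G-E12 (-0.568, limma adjusted p = 0.194) and missed the threshold in 15 further fits that each left out 1 segment (G-B01, G-B04, G-B11, G-C03, G-D06, G-E01, G-E08, G-G01, G-G02, H-C06, H-C09, H-D02, H-D03, H-D05 or H-G04), with differences of -0.775 to -0.663 and limma adjusted p of 0.05 to 0.117. The difference was 0.0552 with counts, floor included, scaled to the same depth, which raises the value of 1 count in shallow segments. The other 5 ran from -0.438 for Mylpf to 0.0339 for Myh1, and the median of the 6 was -0.408 against -0.0137 for all targets. On the fast fibre list 3 of 10 genes were lower (Tnnt3, Tpm1 and Tpm2), as were 2 of 3 smooth muscle and 3 of 6 adipocyte genes. Lower too were 7 of 8 Fibroblast genes (median -1.74, Col1a1 at -4.43) and 6 of 8 Macrophage genes (median -1.15, Apoe at -3.67), and their part in the difference was not tested.

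Between relapse interface and relapse stroma none of the 6 genes was called, nor was any target (0.0% by limma). At an unadjusted p under 0.05 there were 131 targets, 1 of them among the 6 genes. The differences ran from -0.413 for Myh4 to 0.184 for Myh1. Myh4 was at 1 count in all 22 interface segments and above it in 7 of 14 stroma segments, with 4 counts at most. The difference of interface minus stroma between relapse and naive was tested as an interaction, and none of the 6 genes passed, where 4.19% of all targets did. The nearest was Mylpf at 0.543 (SE 0.285, limma adjusted p = 0.291). Tpm1 of the fast fibre list passed at 1.45 (limma adjusted p = 0.00598).

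Between the stages, none of the 6 genes was called in stroma. In acute minus naive stroma 0.0197% of all targets were called, and none of the 6 had an unadjusted p under 0.05 in limma. Acta1 was highest at 0.628 (SE 0.333, limma adjusted p = 0.462) and Myh4 lowest at -0.385. On plate G alone, where 4 acute and 15 naive stroma segments can be compared, the Acta1 difference was -0.81 (limma adjusted p = 0.999). In relapse minus naive stroma 1.4% of all targets were called, and the 6 genes ran from -0.325 for Tnnt3 to 0.122 for Myh4. These 2 classes share no plate. With plate as a covariate, which rests on the acute segments of both plates, Acta1 was called lower in relapse than in naive stroma. It was at -2.73 (limma adjusted p = 0.0107), against -0.147 without plate. In that fit 8 of 5087 targets were called. Acta1 was at the floor in 10 of 14 relapse and 9 of 15 naive stroma segments.

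In relapse minus acute stroma 1.53% of all targets were called and none of the 6 genes, with Acta1 at -0.775 (SE 0.338, limma adjusted p = 0.196) and Myh4 at 0.506 (limma adjusted p = 0.234). With plate as a covariate Acta1 was called at -1.93 (limma adjusted p = 0.00334), in a fit that called 146 of 5087 targets. On plate H alone, with 5 acute and 14 relapse segments, 10.3% of targets were called and 3 of the 6 genes. Acta1 was lower in relapse at -1.93 (limma adjusted p = 0.00111), Mylpf was lower at -0.762 (limma adjusted p = 0.0466) and Myh4 was at 0.692 (limma adjusted p = 0.0350). The last gives no direction for Myh4 RNA: its counts reached 14 in the acute and 4 in the relapse segments, none of the 5 acute segments exceeded the limit, and 1 count has a median value of 3.74 in relapse stroma. The 5 acute segments on plate H include 4 of the 7 segments named above. Median depth was 111275 in the acute and 3964 in the relapse segments of plate H, and the part of depth in these differences was not tested within the plate.

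**Figure D5:**
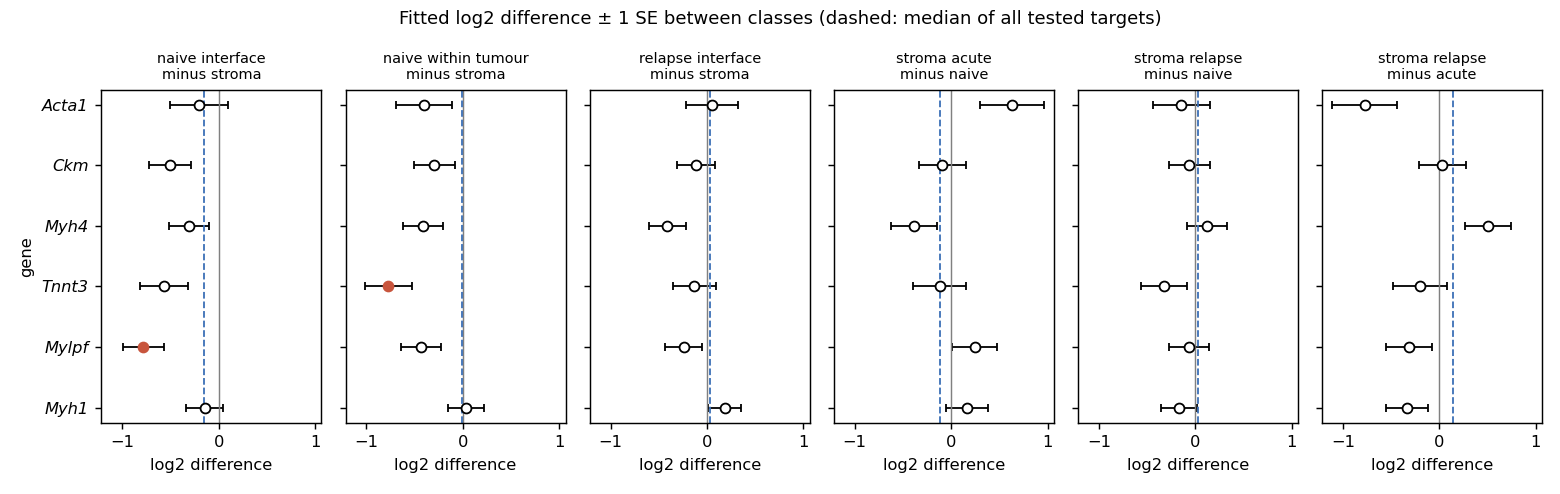
Fitted log2 difference of each gene ± 1 SE in the 6 comparisons, on log2(deposited value + 1), with the median of all 5087 tested targets as a dashed line. Filled points pass at an adjusted p under 0.05: Mylpf at -0.784 in naive interface minus stroma and Tnnt3 at -0.774 in naive within tumour minus stroma.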

How the data were processed

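Tags were released from 89 segments, which the labels' protocols place on fresh frozen sections. The deposited matrix holds normalised signal, in which the authors divided each tag count by a factor for the segment, a deposited ratio based on the upper quartile. Multiplied by that factor, 99.9858% of values were whole within 1e-06. The negative-probe signal and its geometric SD, a ratio, are deposited per segment, per the file headers. The submitters' processing notes name mm10 and Seurat; the counter and its version are not given in the sources used here.

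Depth was the sum of count minus 1 over 19962 targets. The limit of quantitation was the larger of 2 counts and the negative-probe geometric mean times its geometric SD to the power 2. Ratios to the panel average divide counts above the floor per list gene by those per target. Classes came from the deposited annotation. Limma 3.58.1 in R 4.3.3 (lmFit, eBayes with trend, two-sided) fitted 1 mean for each of the 7 classes on log2(value + 1), with Benjamini-Hochberg adjustment at 0.05. The fit was tested on simulated data. Other values used Python 3.11.15 and scipy 1.17.1 (exact Clopper-Pearson intervals at 95%). Alternatives changed the filter, pseudocount (0.5), scaling, depth or plate as covariate, plate subset, position block and each segment. The scaling alternative, named the same depth below, multiplied each count by the median depth over the segment's depth. The floor of 1 was scaled too, although depth leaves it out. Totals were therefore not equal, and 1 count had a higher value in shallow segments.

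Members and gene lists were chosen with earlier results of these data known. Named genes were the 6 members, of each muscle list the genes above the limit in at least 10% of segments or the 3 highest of these, and the 10 targets most alike; Myh2, Pax7 and the smooth muscle and adipocyte genes were named after their values were seen. All 6 members matched a RefSeq symbol and 5 had a promoter entry.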

Additional observations from a re-analysis of the deposited data

Results flagged for a closer look

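Ckm in acute stroma had 1 segment, H-A05, that stood apart from the rest. Its deposited value was 17.2, the next was 5.61 in H-A02 and the lowest 1.603 in H-B05. On log2(value + 1) the gap to the next was 0.521 of the range, above Dixon's 95% value for 9 samples. Of 6 such groups, 1 was singled out, and chance does this for about 1 in 20.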

How the results depend on the processing

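Changes were counted over 36 values, the log2 differences of 6 genes in 6 comparisons. All 36 kept their direction and side of the threshold with a pseudocount of 0.5, 35 with no filter, 34 with depth as a covariate and 34 with the position cluster as a random block (the block, plate subsets and segments left out were chosen after seeing the data). With plate as a covariate 30 of 36 did, on plate G 15 of 18, on plate H 8 of 12, and 18 of 36 with counts scaled to the same depth. That scaling multiplies the floor too and raises values in shallow segments, so it cannot decide between classes of unlike depth. It shifted the median of all targets to 0.576 within the naive tumour, 0.4934 in relapse minus naive and 0.5917 in relapse minus acute. The edgeR test listed among the alternatives was not run, and neither were plate subsets where a class had no segment on that plate. No paired analysis was possible because the labels give the groups no shared replicate numbers; position clusters that hold several classes entered only as the random block. The cause of the changes below was not tested.

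The number of the 6 genes called in naive interface minus stroma was 0 with the same depth. Within the naive tumour it was 0 with no filter, depth as a covariate or the block. Plate as a covariate gave 1 (Acta1) in relapse minus naive (-2.73) and 1 (Acta1) in relapse minus acute (-1.93); plate H gave 3. Leaving out 1 segment gave 1 to 2 in naive interface minus stroma and 0 to 1 within the naive tumour.

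All targets called in naive interface minus stroma were 563 (27 higher), against 53 (2 higher) with the same depth and 331 with the block. Within the naive tumour they were 186 (11 higher), against 2671 (2646 higher) with the same depth. In acute minus naive they were 1 (higher), against 1 (lower) with the same depth and 6 with depth as a covariate. They were 0 with no filter (2004 at an unadjusted p under 0.05 in limma), pseudocount 0.5 (595), plate as a covariate (264), plate G (183) or the block (530). Leaving out 1 segment gave 0 to 16. In relapse minus naive they were 71 (7 higher), against 88 (81 higher) with the same depth, 8 with plate and 44 with the block. In relapse minus acute they were 78 (45 higher), against 2597 with no filter and 147 (all higher) with the same depth. They were 50 with depth as a covariate, 146 with plate, 526 on plate H and 41 with the block. Leaving out 1 segment gave 28 to 158, and the count moved by over 1.5 times without G-G08, G-G10, G-G12, H-A02, H-A05, H-A06 or H-B05.

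With the same depth, values that changed sign within the naive tumour were Acta1 0.237, Ckm 0.367, Myh4 0.304, Tnnt3 0.0552 and Mylpf 0.265, and Myh1 passed at 0.609. In relapse interface minus stroma they were Ckm 0.139, Tnnt3 0.157 and Mylpf 0.106. In relapse minus naive they were Acta1 0.325, Ckm 0.465, Tnnt3 0.243, Mylpf 0.403 and Myh1 0.342, and in relapse minus acute Tnnt3 0.398, Mylpf 0.3 and Myh1 0.26. With plate as a covariate and on plate G, acute minus naive was -0.81 for Acta1, -0.316 for Mylpf and -0.0792 for Myh1. Ckm in relapse minus acute was -0.237 with plate and on plate H and -0.00583 with the block. Myh1 within the naive tumour was -0.0582 with depth as a covariate.

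Without 1 segment the range crossed 0 for Acta1 in naive interface minus stroma (-0.338 to 0.0349, highest without G-E12), relapse interface minus stroma (-0.0109 to 0.15) and relapse minus naive (-0.283 to 0.09), and for Myh1 within the naive tumour (-0.0443 to 0.13). In acute minus naive it did for Ckm (-0.325 to 0.114), Tnnt3 (-0.433 to 0.0867) and Myh1 (-0.0409 to 0.261, lowest without H-A05). In relapse minus naive it did for Ckm (-0.159 to 0.144) and Mylpf (-0.199 to 0.1), and in relapse minus acute for Ckm (-0.089 to 0.262) and Tnnt3 (-0.359 to 0.108).

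Segments with any of the 6 genes above the limit numbered 8 in naive stroma, 10 in naive interface, 2 within the naive tumour, 5 in acute stroma, 2 in acute interface, 5 in relapse stroma and 4 in relapse interface. With more than 10 counts as the limit they were 2, 0, 0, 4, 1, 0 and 0, and with the geometric SD to the power 3 they were 5, 6, 2, 4, 1, 4 and 4. In the same order of classes, 10.5, 16.7, 8.87, 7.29, 6.57, 5.51 and 4.0% of the values of all targets exceeded the main limit. The 10 segments in naive interface thus came from the class where any target exceeded the limit most often. At the median depths of relapse and within-tumour segments, 3570 to 4438.5, an average target has 1.18 to 1.22 counts, against 1.54 in naive stroma and 4.24 in acute stroma.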
